A study of Mus musculus with 2 samples.

Results

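The 10 genes of the integrated stress response and the unfolded protein response described here are Atf4, Ddit3, Trib3, Asns, Chac1, Sesn2, Eif4ebp1, Hspa5, Xbp1 and Herpud1. They were taken by gene symbol from the 32245 symbols of the series, and all 10 were found. Single-cell RNA sequencing with a 5′ kit was done on kidney of 9-week-old male C57BL/6 mice 24 h after bilateral renal ischemia-reperfusion injury (IRI). The control library came from 1 mouse given saline, and the JPI-289 library from 1 mouse given the poly (ADP-ribose) polymerase inhibitor JPI-289 at 100 mg/kg, both by intraperitoneal injection just before reperfusion. Neither library is from an uninjured kidney, and because each condition has 1 library the conditions could not be tested against each other. Values named as with saline are from the control library, and those named as with JPI-289 from the other.

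The integrated stress response starts when a kinase such as PERK or GCN2 phosphorylates the translation factor eIF2, which slows protein synthesis in general but favours translation of the transcription factor ATF4. ATF4 then raises transcription of genes for amino acid supply and, with CHOP, of genes that act in cell death and in feedback. The unfolded protein response is the set of signals from the endoplasmic reticulum (ER) through PERK, IRE1 and ATF6, and it raises chaperones and the machinery that degrades misfolded proteins. In the kidney both responses are known from tubular injury by ischemia, toxins and proteinuria. ATF4 and XBP1 are controlled largely after transcription, by translation and by splicing, and counts of RNA per gene show neither.

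The upstream regions of members with a match to a known motif of these responses are shown first, because the members differ in the motifs they hold. The RefSeq promoter table of GRCm38.p6 holds a window of 300 bases, 250 before and 50 after the start of the gene, for 9 of the 10 members. Both strands were searched for the ATF4 motif CARE (TGATGNAA), for TGACGTGG, a site of ATF6 and XBP1, for ERSE (CCAAT and CCACG with 9 bases between them) and for ERSE-II (ATTGG and CCACG with 1 base between them). The windows are printed 5′ to 3′ on the strand of the gene, with the matches in capitals.
Trib3: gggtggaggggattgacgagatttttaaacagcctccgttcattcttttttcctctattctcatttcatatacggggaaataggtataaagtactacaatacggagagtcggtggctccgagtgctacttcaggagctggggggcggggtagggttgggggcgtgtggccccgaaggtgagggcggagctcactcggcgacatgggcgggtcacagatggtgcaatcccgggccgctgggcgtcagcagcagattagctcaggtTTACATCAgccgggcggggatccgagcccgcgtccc
Asns: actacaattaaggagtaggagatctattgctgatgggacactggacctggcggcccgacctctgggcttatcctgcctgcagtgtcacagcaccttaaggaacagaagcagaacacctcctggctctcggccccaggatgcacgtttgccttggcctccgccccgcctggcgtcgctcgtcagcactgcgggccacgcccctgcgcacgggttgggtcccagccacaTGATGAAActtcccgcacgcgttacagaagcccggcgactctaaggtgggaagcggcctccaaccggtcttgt
Chac1: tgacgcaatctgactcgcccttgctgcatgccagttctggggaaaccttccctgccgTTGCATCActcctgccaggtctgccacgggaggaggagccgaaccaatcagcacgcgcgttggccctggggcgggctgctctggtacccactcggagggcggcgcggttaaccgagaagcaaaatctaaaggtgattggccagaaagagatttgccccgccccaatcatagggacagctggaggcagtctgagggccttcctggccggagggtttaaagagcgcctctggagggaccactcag
Hspa5: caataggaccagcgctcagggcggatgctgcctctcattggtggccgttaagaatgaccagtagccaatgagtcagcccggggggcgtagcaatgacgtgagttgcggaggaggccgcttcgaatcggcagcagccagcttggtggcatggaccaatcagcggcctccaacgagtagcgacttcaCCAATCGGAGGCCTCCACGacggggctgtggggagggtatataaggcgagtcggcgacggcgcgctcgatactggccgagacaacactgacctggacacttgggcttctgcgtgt
Herpud1: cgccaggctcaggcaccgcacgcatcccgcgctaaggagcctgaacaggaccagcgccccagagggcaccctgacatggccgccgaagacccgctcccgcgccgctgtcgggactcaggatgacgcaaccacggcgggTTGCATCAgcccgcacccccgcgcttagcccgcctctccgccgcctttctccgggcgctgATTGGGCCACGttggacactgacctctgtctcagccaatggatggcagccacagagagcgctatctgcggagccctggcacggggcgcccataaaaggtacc

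These windows lie at chr2:152344011-152344310 on the minus strand for Trib3, chr6:7693160-7693459 on the minus strand for Asns, chr2:119350992-119351291 on the plus strand for Chac1, chr2:34771840-34772139 on the plus strand for Hspa5 and chr8:94386179-94386478 on the plus strand for Herpud1. CARE was matched in 4 of the 9 windows, against 3.97% of all 32851 windows of the table. In Asns it reads forward at bases 228 to 235 of the window. In Trib3 (bases 265 to 272, after the start of the gene), Chac1 (58 to 65) and Herpud1 (139 to 146) it reads on the opposite strand. ERSE was matched only in Hspa5 among the 9 members, at bases 186 to 204, against 0.119% of all windows. ERSE-II was matched only in Herpud1 among them, at bases 199 to 209, against 0.0365% of all windows. No member window held TGACGTGG, against 0.676% of all windows. No match overlapped another. The motifs are known ones of the responses for which the members were chosen. The shares of all windows are therefore a description and not a test. A match describes these letters and does not show that a factor binds there.

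The authors deposited raw counts of unique molecular identifiers (UMIs), 38328760 with saline and 35548396 with JPI-289. After cell calling, and without barcodes of over 50% mitochondrial UMIs, there were 3734 and 5025 cells, whose median depth was 2069 and 1872 UMIs. Of their barcodes, 23 occurred in both libraries. Clusters were formed without the members or their pathway genes and were named from marker genes. The level of a gene is its summed UMIs in a class divided by all UMIs of that class, given per 1000000 UMIs (CPM). It comes with an exact 95% Poisson interval, and each log2 ratio (JPI-289 over control) with an exact binomial one. Both cover counting error only and not the difference between mice. A gene was counted as called higher or lower when its levels differed at least 2-fold and it had at least 20 UMIs over both libraries. Levels are compared between libraries and classes for the same gene and not between genes.

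The proximal tubule (PT)-like class held 1766 control and 1643 JPI-289 cells and the endothelial cell (EC)-like class 501 and 567. The thick ascending limb (TAL)-like class held 287 and 411 cells, the distal convoluted and connecting tubule (DCT/CNT)-like class 218 and 249, and the collecting duct (CD) principal-like class 81 and 384. There were 55 and 57 podocyte-like, 157 and 100 stroma-like, 196 and 653 neutrophil-like, 201 and 301 macrophage/monocyte-like and 76 and 123 red blood cell-like cells. CD intercalated-like cells (46 and 61) and lymphocyte-like cells (6 and 98) were too few in 1 library to be compared. The PT-like cells of the 2 libraries fell into different clusters, with control cells in clusters 0, 4 and 14 and JPI-289 cells in clusters 1, 8 and 10. A cluster of PT-like cells may therefore be a library and not a subtype. Clusters 1 and 10 were led by markers of injured PT, and Havcr1, which encodes kidney injury molecule 1, was at 35.1, 156 and 66.8 CPM in clusters 0, 4 and 14 and at 186, 722 and 258 in clusters 1, 8 and 10.

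In PT-like cells, Atf4 and 4 of its transcriptional targets, Trib3, Asns, Chac1 and Eif4ebp1, were at least 2-fold higher in the JPI-289 library. Its other targets among the members were not. Sesn2 was higher and Ddit3 lower, both by less than 2-fold, with log2 ratios of 0.46 and −0.52. Herpud1, also a gene of the ER, was lower, at 0.339 times the control level. Thus 5 of 10 members were called higher, against 9.09% of the 11304 genes with enough UMIs, and 1 was called lower, against 23.4%. Of the 5, Trib3 (3 control and 41 JPI-289 UMIs) and Chac1 (7 and 22) had enough UMIs only because of the JPI-289 library. With so few control UMIs they could hardly enter this count other than as higher. The members were also chosen with earlier results of these data known, so these shares are a description and not a test. The median log2 ratio of the members was 1.09, beside −0.19 for all genes. In EC-like cells, none of the 9 members with enough UMIs was called in either direction, against 5.13% of 9730 genes called higher and 18.6% called lower, and their median was −0.52, beside −0.18 for all genes.

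**Figure D1:**
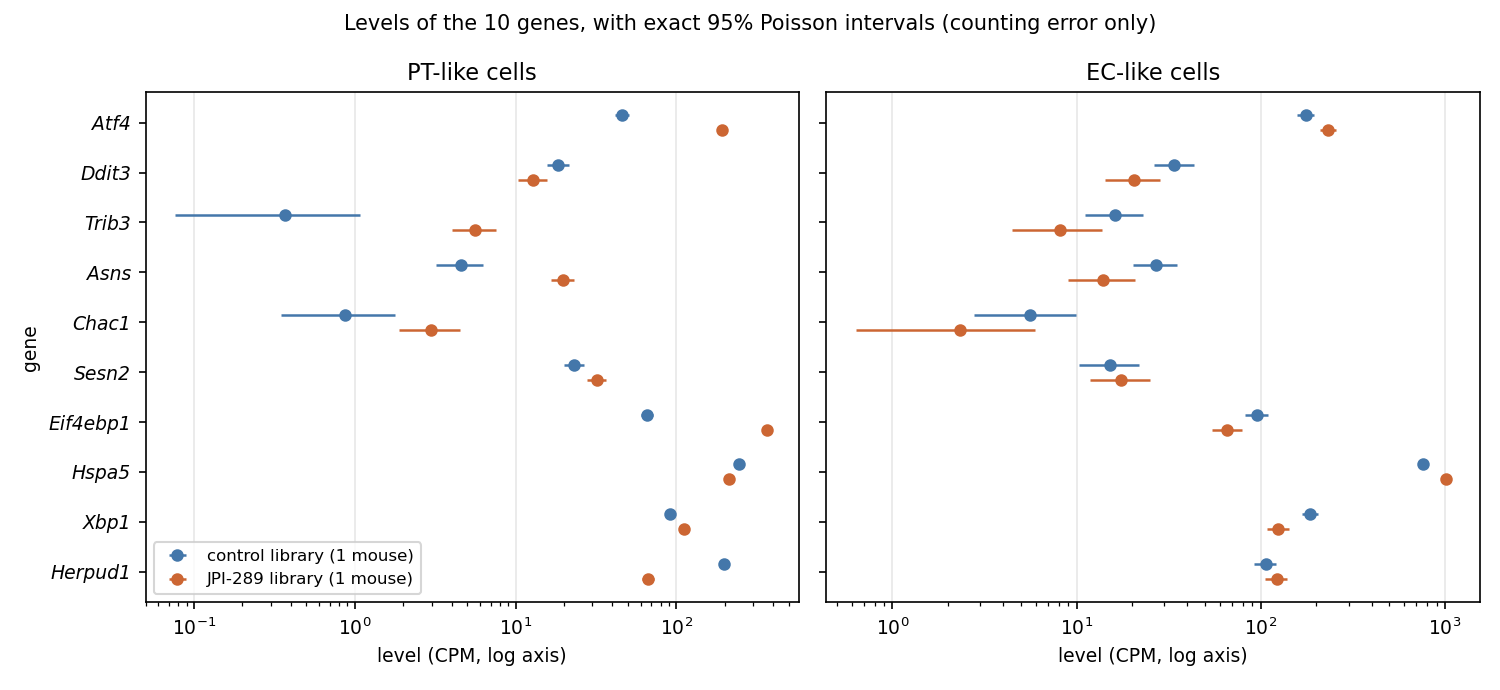
Levels of the 10 genes in PT-like and EC-like cells in CPM on a log axis, with 1 point per library and exact 95% Poisson intervals. In PT-like cells Atf4, Asns and Eif4ebp1 lie higher in the JPI-289 library (orange) and Herpud1 lower, with intervals well apart, whereas in EC-like cells Asns and Eif4ebp1 lie lower.

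Atf4 (ENSMUSG00000042406, chromosome 15 from 80255184 to 80257541 of GRCm38) encodes the central transcription factor of the integrated stress response. In PT-like cells it had 372 UMIs with saline and 1405 with JPI-289, or 46.0 (41.4 to 50.9) and 191 (182 to 202) CPM. The log2 ratio was 2.06 (1.89 to 2.23). In the control library the PT-like level was the lowest of the classes other than red blood cell-like cells. Its interval overlapped those of several classes, among them CD principal-like cells at 58.8 CPM. EC-like cells had the highest level, 175 CPM, which overlapped that of stroma-like cells at 142. In the JPI-289 library PT-like cells came after stroma-like cells (259 CPM) and EC-like cells (233), and did not overlap the latter.

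Outside PT-like cells, Atf4 was called higher in CD principal-like cells, with 58 and 183 UMIs and a log2 ratio of 1.197 (0.77 to 1.66). It was just under 2-fold higher in DCT/CNT-like cells, at 0.99 (0.42 to 1.61). In podocyte-like cells it was called higher on 6 and 14 UMIs, at 1.26 (−0.14 to 2.99), an interval that includes 0. The log2 ratio was 0.77 in TAL-like, 0.87 in stroma-like, 0.45 in macrophage/monocyte-like, 0.41 (0.20 to 0.62) in EC-like and 0.21 (−0.23 to 0.69) in neutrophil-like cells. The summed level was therefore higher with JPI-289 in each of the 9 classes with at least 20 UMIs of Atf4, although the interval of 2 of them included 0. Barcodes with under 100 UMIs, which hold mostly free RNA, had the same order, at 81.6 CPM with saline and 157 with JPI-289. Their log2 ratio was 0.94 (0.31 to 1.595), and the class sums do not separate free RNA from RNA of the cells. In cells under 2000 UMIs the ratio turned to −0.85 (−2.59 to 0.89) in macrophage/monocyte-like cells, on 7 UMIs in each library, and to −0.19 (−0.86 to 0.55) in neutrophil-like cells. The CD principal-like cells of the 2 libraries differed in depth, with a median of 9166 UMIs with saline and 1540 with JPI-289. In those of at least 2000 UMIs the log2 ratio of Atf4 was 1.17 (0.72 to 1.66), on 57 and 126 UMIs. In those under 2000 UMIs it was 0.74 (−1.22 to 6.64), on 1 and 57 UMIs. In podocyte-like cells it was 0.61 (−1.09 to 2.83) in cells under 2000 UMIs, and 0.016 when each library was clustered alone.

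Ddit3 (ENSMUSG00000025408, chromosome 10 from 127290774 to 127296288) encodes CHOP, a transcription factor that ATF4 induces and that acts in stress-related cell death. PT-like cells had 149 UMIs with saline and 94 with JPI-289, or 18.4 (15.6 to 21.6) and 12.8 (10.4 to 15.7) CPM. It was thus lower, by less than 2-fold, where Atf4 was higher, at −0.52 (−0.91 to −0.14) on the log2 scale. In EC-like cells it had 67 and 35 UMIs, a log2 ratio of −0.73 (−1.37 to −0.13). The other classes with at least 20 UMIs had ratios between −0.77 in TAL-like and −0.01 in stroma-like cells, with intervals that included 0. Ddit3 was therefore called higher in no class when all cells were summed. In cells under 2000 UMIs the direction turned in several classes. There neutrophil-like cells had 3 and 31 UMIs and a ratio of 1.57 (0.09 to 4.13), TAL-like cells 1 and 7 UMIs and 1.92 (−0.56 to 7.90), EC-like cells 2 and 6 UMIs and 1.31 (−0.97 to 4.85), and PT-like cells 15 UMIs each and 0.011. In each library neutrophil-like, macrophage/monocyte-like and stroma-like cells were above PT-like cells, at 46.0, 40.9 and 37.2 CPM in the control library and 41.6, 33.5 and 36.3 in the JPI-289 library.

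The symbol Ddit3 stands for 2 gene identifiers in the files. The other (ENSMUSG00000116429, chromosome 10 from 127290829 to 127293753, on the same strand) had 0 UMIs over all barcodes of both libraries. Its 105 exonic bases all lie inside exons of the first, which has 1713, and they begin close to the 5′ end of the gene, where a 5′ kit reads. Reads that fit both identifiers are not counted for either, so the level of Ddit3 may be understated, which was not tested.

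Trib3 (ENSMUSG00000032715, chromosome 2 from 152337422 to 152344032) encodes a pseudokinase that is induced by ATF4 and CHOP and restrains them. PT-like cells had 3 UMIs with saline and 41 with JPI-289, or 0.371 (0.0764 to 1.08) and 5.59 (4.01 to 7.58) CPM. The log2 ratio of 3.71 has a wide interval, from 2.27 to 6.25, because of the 3 control UMIs. EC-like cells went the other way, with 32 and 14 UMIs and a log2 ratio of −0.96 (−2.01 to −0.05). In both libraries the EC-like level was the highest of the classes, at 16.2 CPM with saline and 8.16 with JPI-289, though it overlapped the next class in each, stroma-like cells in the former and PT-like cells in the latter. In stroma-like cells Trib3 had 10 UMIs with saline and 0 with JPI-289, where a count of 0, taken as up to 3 UMIs, allows up to 7.77 CPM. No UMI of Trib3 was found in neutrophil-like, DCT/CNT-like, podocyte-like or red blood cell-like cells.

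Asns (ENSMUSG00000029752, chromosome 6 from 7675169 to 7693254) encodes asparagine synthetase and has the forward CARE match printed above. In PT-like cells it had 37 UMIs with saline and 144 with JPI-289, or 4.57 (3.22 to 6.30) and 19.6 (16.6 to 23.1) CPM, a log2 ratio of 2.09 (1.57 to 2.66). PT-like cells had the lowest level of the classes in the control library, but overlapped several of them, among them neutrophil-like cells at 4.598 CPM. In the JPI-289 library PT-like cells were among the highest, with DCT/CNT-like cells at 21.3 CPM. In stroma-like cells the order was opposite, with 39 and 2 UMIs and a log2 ratio of −2.83 (−6.23 to −1.18). In those under 2000 UMIs it was −0.81, but on 1 and 0 UMIs, too few to show a ratio. Asns was detected in 8.92% of the 157 control stroma-like cells without thinning, and the intervals do not cover variation between cells. EC-like cells, with 53 and 24 UMIs, had a ratio of −0.93 (−1.70 to −0.22). Neutrophil-like cells had 2 and 22 UMIs and were called higher at 1.28, with an interval from −0.45 to 4.70 that includes 0.

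Chac1 (ENSMUSG00000027313, chromosome 2 from 119351229 to 119354381) encodes an enzyme that breaks down glutathione and lies downstream of ATF4. It was rare in every class. PT-like cells had 7 UMIs with saline and 22 with JPI-289, or 0.865 (0.348 to 1.78) and 2.997 (1.88 to 4.54) CPM, a log2 ratio of 1.73 (0.52 to 3.26). In no other class did Chac1 reach 20 UMIs, and EC-like cells had 11 and 4.

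Sesn2 (ENSMUSG00000028893, chromosome 4 from 132492032 to 132510501) encodes sestrin 2, a leucine sensor that restrains mTORC1. PT-like cells had 188 and 234 UMIs, or 23.2 (20.03 to 26.8) and 31.9 (27.9 to 36.2) CPM, a log2 ratio of 0.46 (0.17 to 0.74), under 2-fold. It was called higher in TAL-like cells, with 15 and 60 UMIs and a log2 ratio of 1.58 (0.78 to 2.54), and in stroma-like cells, with 12 and 17 UMIs and 1.64 (0.51 to 2.86). In cells under 2000 UMIs the ratio was 0.52 (−1.30 to 2.78) in TAL-like cells, on 4 and 8 UMIs. It was 0.29 (−3.40 to 3.31) in stroma-like cells, on 3 and 2 UMIs. Neutrophil-like cells had its highest level in both libraries, 62.1 and 55.9 CPM, overlapping the next class in each.

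Eif4ebp1 (ENSMUSG00000031490, chromosome 8 from 27260329 to 27276674) encodes 4E-BP1, which binds the cap-binding protein eIF4E and holds back translation. In PT-like cells its level was 66.0 (60.5 to 71.8) CPM with saline and 364 (350 to 378) with JPI-289, on 534 and 2668 UMIs, with a log2 ratio of 2.46 (2.33 to 2.60). Of the classes other than red blood cell-like cells, PT-like cells had the lowest level in the control library, with no overlap with the next. The wide interval of podocyte-like cells, 47.7 to 197.8 CPM on 9 UMIs, did cover it. In the JPI-289 library PT-like cells had the highest level, overlapping only neutrophil-like cells at 347 CPM. DCT/CNT-like cells were also called higher, with 57 and 165 UMIs and a log2 ratio of 1.21 (0.78 to 1.68), but of 0.39 when clusters were formed at a resolution of 0.5. Stroma-like cells were called lower, with 203 and 40 UMIs and −1.17 (−1.71 to −0.69), and EC-like cells were lower by less than 2-fold, with 187 and 113 UMIs and −0.52 (−0.88 to −0.18), which was 0.27 in cells under 2000 UMIs. Red blood cell-like cells had 1 and 23 UMIs, or 7.05 and 101.5 CPM, a log2 ratio of 3.29 (1.23 to 9.21). The 23 UMIs came from 8.94% of the 123 JPI-289 cells. Barcodes with under 100 UMIs held Eif4ebp1 at 81.6 CPM with saline and 160 with JPI-289, above both levels. The class sums do not separate free RNA from RNA of the cells.

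Counted by class, 2 of 8 members with enough UMIs were called higher in TAL-like cells, against 7.51% of all genes there. It was 1 of 7 in DCT/CNT-like cells against 8.45%, 1 of 7 in CD principal-like cells against 8.49%, 1 of 4 in podocyte-like cells against 24.7%, and 1 of 2 in red blood cell-like cells against 17.4%. In stroma-like cells 1 of 8 was called higher against 11.8% and 2 of 8 lower against 14.0%. In neutrophil-like cells 1 of 8 was called higher against 11.5% and 1 of 8 lower against 10.4%. With so few members per class, shares such as 1 of 7 are close to the background. Asns in neutrophil-like cells (2 control and 22 JPI-289 UMIs) and Eif4ebp1 in red blood cell-like cells (1 and 23) had enough UMIs only because of the JPI-289 library. Asns in stroma-like cells (39 and 2), called lower, had enough only because of the control library. Such genes could hardly be called in the other direction. No member of the 7 with enough UMIs was called in macrophage/monocyte-like cells, against 8.90% of all genes called higher and 15.4% called lower.

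**Figure D2:**
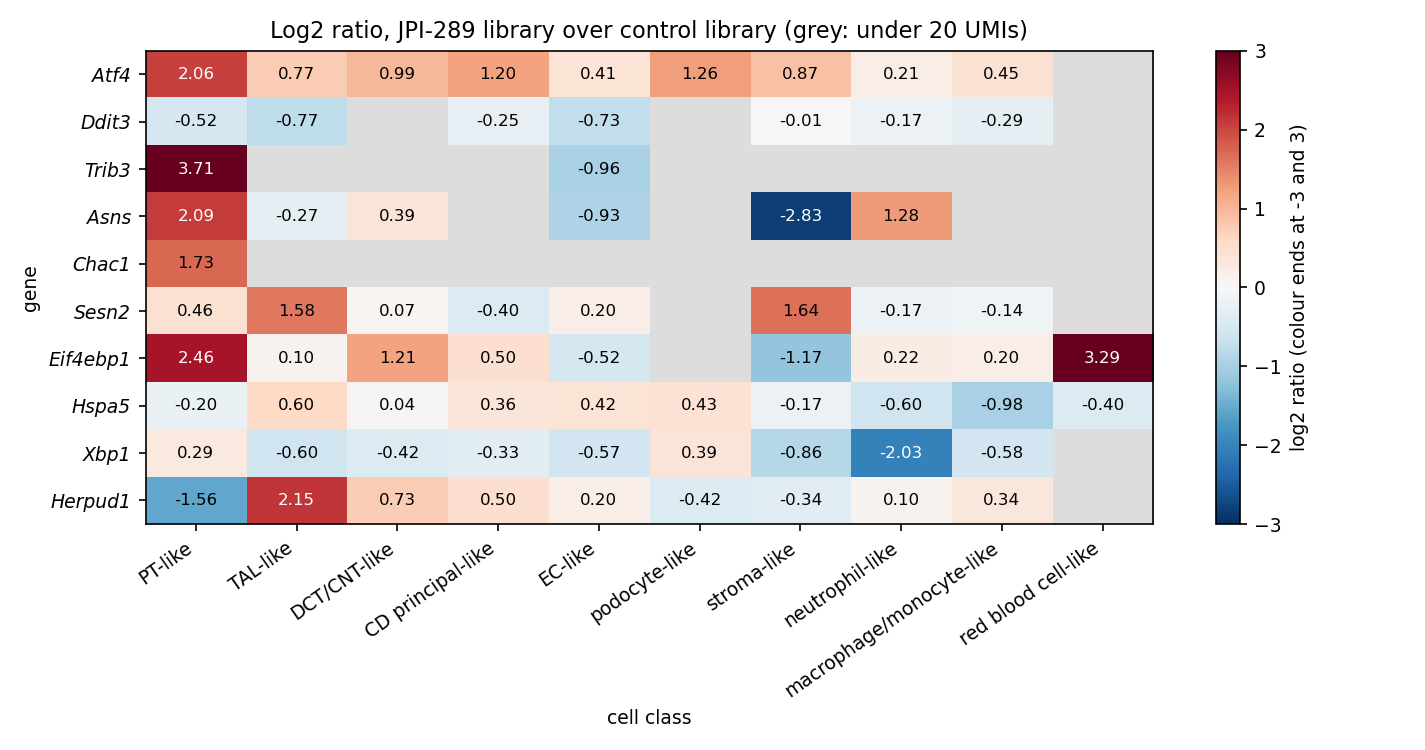
Log2 ratio of the JPI-289 over the control library for each gene (rows) in each compared class (columns), with the value printed and grey where both libraries together held under 20 UMIs. Atf4 is above 0 in the 9 classes that have a value, although in cells under 2000 UMIs it falls below 0 in macrophage/monocyte-like (−0.85) and neutrophil-like (−0.19) cells, whereas Herpud1 is lowest in PT-like (−1.56) and highest in TAL-like cells (2.15).

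The genes of the ER arm did not follow the same order. Hspa5 (ENSMUSG00000026864, chromosome 2 from 34771970 to 34777547) encodes BiP, the main chaperone of the ER lumen, and holds the ERSE match. In PT-like cells it had 1978 UMIs with saline and 1565 with JPI-289, or 244 (234 to 255) and 213 (203 to 224) CPM, a log2 ratio of −0.20 (−0.29 to −0.10) that lies near the median of all genes. Stroma-like and EC-like cells had the highest levels in both libraries, with stroma-like cells first in the control (978 CPM) and EC-like cells first in the JPI-289 library (1017). Macrophage/monocyte-like cells had 840 and 488 UMIs and a log2 ratio of −0.98 (−1.15 to −0.82), just under 2-fold lower. The ratio was −0.60 (−0.88 to −0.30) in neutrophil-like, 0.60 (0.33 to 0.88) in TAL-like, 0.42 (0.32 to 0.52) in EC-like and 0.36 (0.10 to 0.63) in CD principal-like cells. In cells under 2000 UMIs it was 0.009 in neutrophil-like cells and, on 3 and 66 UMIs, −0.27 (−1.67 to 2.26) in CD principal-like cells. In stroma-like cells the ratio was −0.17 over all cells and 1.81 (1.15 to 2.53), on 28 and 58 UMIs, in those under 2000 UMIs. In TAL-like cells it ran from 0.491 to 7.997 over the alternatives tried, so its size there is uncertain. Barcodes with under 100 UMIs held Hspa5 at 351.5 CPM with saline and 340 with JPI-289, above the 174 and 264 of TAL-like cells.

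Xbp1 (ENSMUSG00000020484, chromosome 11 from 5520659 to 5525893) encodes the transcription factor whose RNA IRE1 splices. PT-like cells had 742 and 821 UMIs, or 91.7 and 112 CPM, a log2 ratio of 0.29 (0.14 to 0.43). It was called lower in neutrophil-like cells, where it had 169 UMIs with saline and 153 with JPI-289, or 389 (332 to 452) and 94.99 (80.5 to 111) CPM. The log2 ratio there was −2.03 (−2.36 to −1.71). Neutrophil-like cells thus had the highest level of the classes in the control library, with no overlap with stroma-like cells at 284 CPM, and a level that overlapped that of PT-like cells in the JPI-289 library. At an equal depth of 1000 UMIs per cell, Xbp1 was detected in 24.9% (18.7 to 31.9%) of the cells with saline and 7.75% (5.71 to 10.2%) with JPI-289 in this class. The unthinned shares were 39.8% and 18.2%. Stroma-like (−0.86), TAL-like (−0.60), macrophage/monocyte-like (−0.58) and EC-like cells (−0.57) had lower levels too, by less than 2-fold, with intervals below 0. In cells under 2000 UMIs the ratio was 0.54 (−0.77 to 1.81) in stroma-like and 0.03 (−0.78 to 0.84) in EC-like cells.

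Herpud1 (ENSMUSG00000031770, chromosome 8 from 94386438 to 94395377) encodes an ER membrane protein that takes part in the degradation of misfolded ER proteins, and it holds both a CARE and an ERSE-II match. In PT-like cells it had 1590 UMIs with saline and 488 with JPI-289, or 196 (187 to 206) and 66.5 (60.7 to 72.7) CPM. The log2 ratio was −1.56 (−1.71 to −1.42). In TAL-like cells it had 93 and 543 UMIs, or 99.2 (80.0 to 122) and 443 (407 to 482) CPM, a log2 ratio of 2.15 (1.84 to 2.49). PT-like cells had its highest level in the control library, overlapping podocyte-like cells at 185 CPM. TAL-like cells had the highest in the JPI-289 library, with no overlap with DCT/CNT-like cells at 162 CPM. DCT/CNT-like cells had a ratio of 0.73 (0.26 to 1.23), and in the other classes with at least 20 UMIs the ratio was between −0.42 and 0.50 with intervals that included 0. Over the alternatives tried, it ran from −0.015 to 5.97 in CD principal-like, 0.56 to 1.79 in DCT/CNT-like and −0.56 to 1.63 in macrophage/monocyte-like cells. It ran from −0.10 to 1.004 in neutrophil-like and −1.17 to 0.405 in podocyte-like cells, so a 2-fold difference outside PT-like and TAL-like cells depends on the processing.

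In TAL-like cells thinned to 1000 UMIs, Herpud1 was detected in 7.57% (4.20 to 12.4%) of the cells with saline and 31.3% (26.0 to 36.9%) with JPI-289, and in 19.2% and 41.8% without thinning. In barcodes with under 100 UMIs, which hold mostly free RNA, Herpud1 was at 152 CPM with saline and 66.9 with JPI-289, the opposite order to that in TAL-like cells. It is the same order as in PT-like cells, where the ratio after subtraction of free RNA was −1.59. In TAL-like cells it was 3.89 after that subtraction. The upper estimate of the free RNA share in TAL-like cells was 53.6% with saline and 13.6% with JPI-289. The subtraction was therefore unequal between the libraries, and the size of the ratio after it depends on these estimates.

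**Figure D3:**
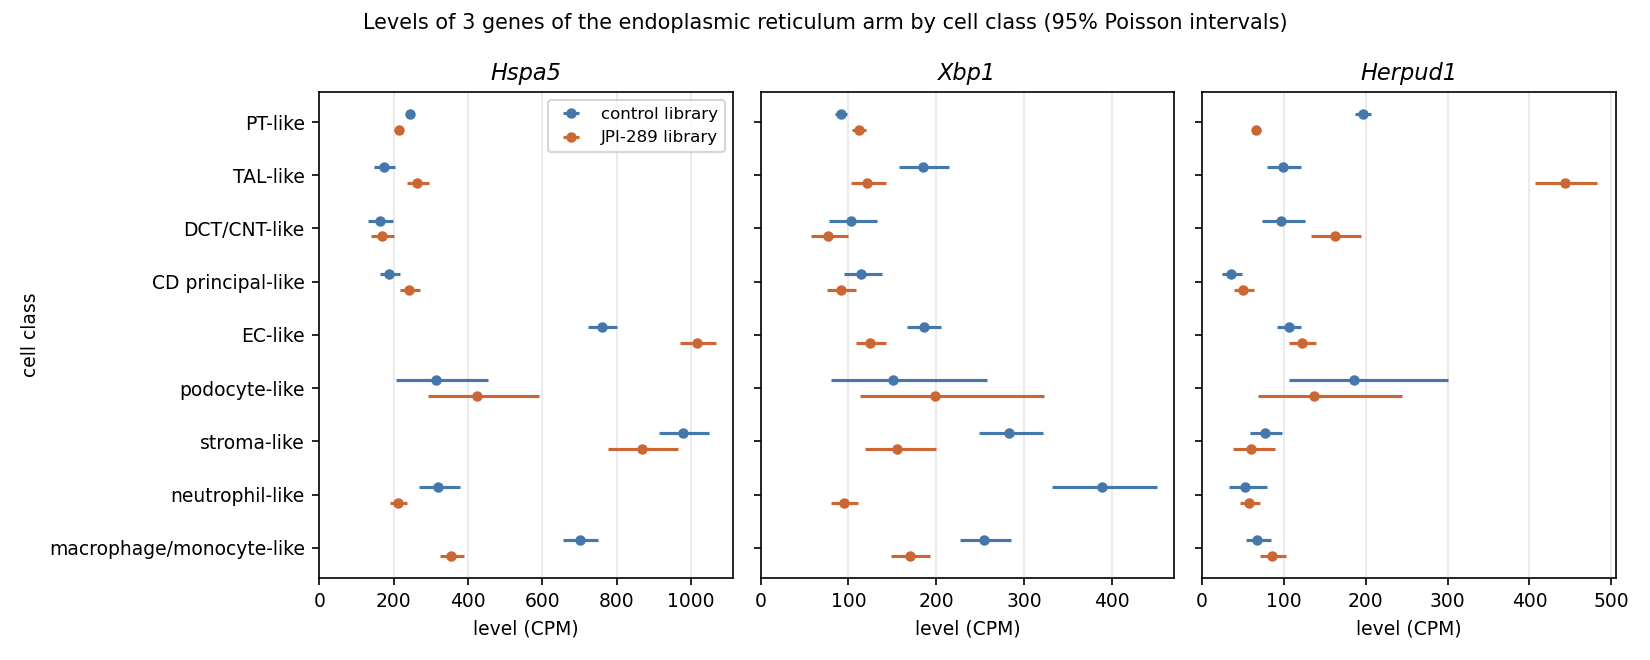
Levels of Hspa5, Xbp1 and Herpud1 in 9 classes in CPM, with 1 point per library and exact 95% Poisson intervals. Xbp1 in neutrophil-like cells is at 389 with saline and 94.99 with JPI-289, and Herpud1 in TAL-like cells at 99.2 and 443.

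Within PT-like cells, the higher levels of Atf4 and Eif4ebp1 were found in each of the JPI-289 clusters. Atf4 was at 37.9, 44.1 and 80.1 CPM in the control clusters 0, 4 and 14 and at 208, 151 and 239 in the JPI-289 clusters 1, 8 and 10. Eif4ebp1 was at 73.4, 70.4 and 10.7 in the former and 337, 455 and 251 in the latter. Asns was at 7.30, 3.90 and 1.34 against 15.5, 27.9 and 10.7. The levels of the 2 libraries' clusters therefore did not overlap in these 3 genes, although for Asns the intervals of some clusters did. Trib3 was at 0.456, 0.390 and 0 against 8.06, 3.56 and 6.84. The levels of Ddit3, Hspa5 and Herpud1 overlapped between the libraries. Ddit3 was at 10.49, 17.0 and 49.4 against 20.5, 3.85 and 16.7, so that cluster 8, which had the most Asns and Eif4ebp1, had the least Ddit3. Hspa5 ranged from 102 to 328 in the control and from 127 to 394 in the JPI-289 clusters. Herpud1 was at 113, 237 and 168 against 50.8, 39.4 and 115.

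**Figure D4:**
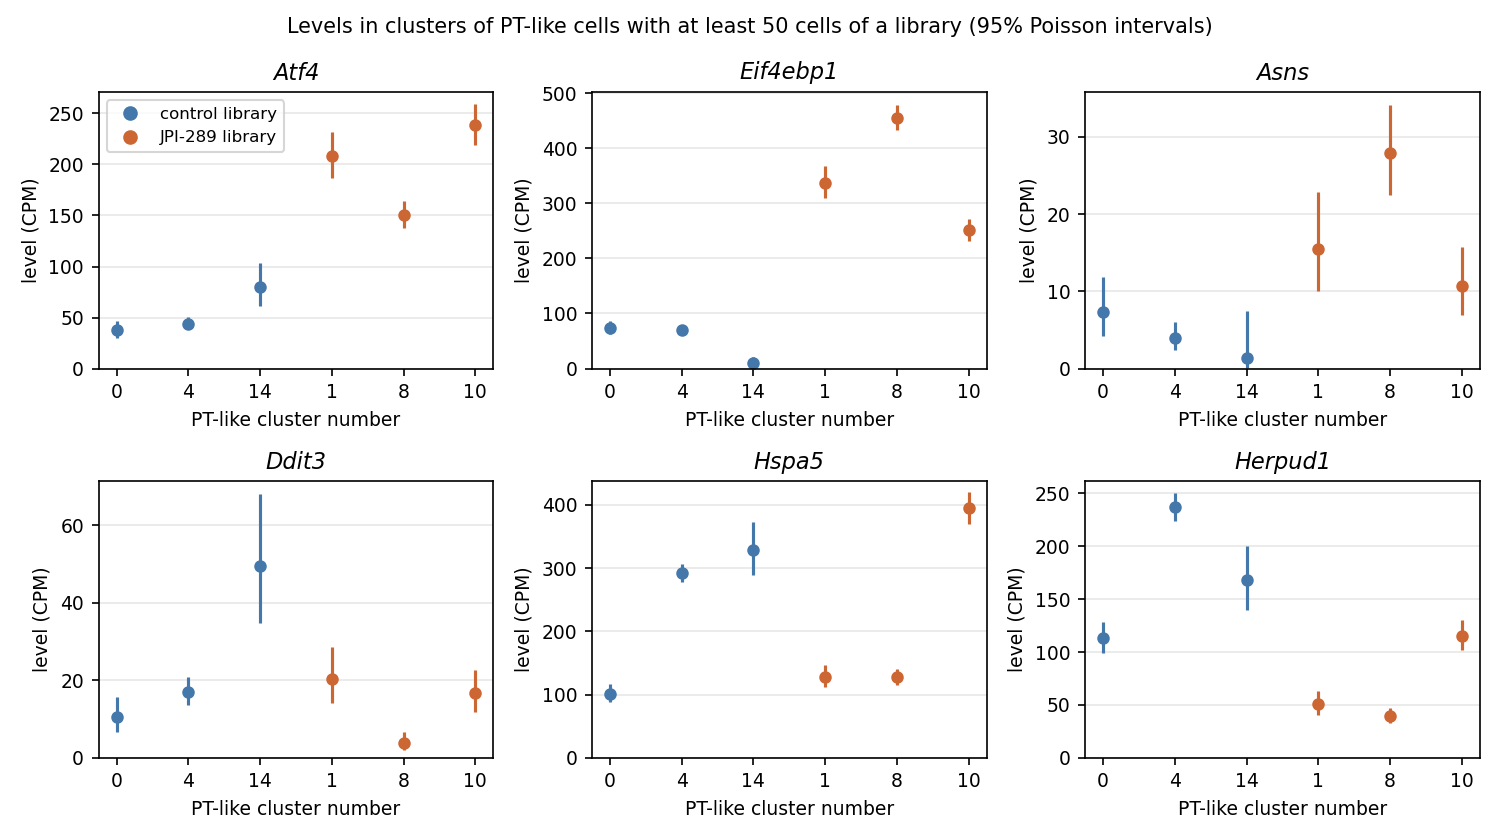
Levels of 6 genes in CPM in the PT-like clusters that held at least 50 cells of a library, with control clusters in blue, JPI-289 clusters in orange and exact 95% Poisson intervals. The points of Atf4, Eif4ebp1 and Asns lie apart between the libraries, while those of Ddit3, Hspa5 and Herpud1 overlap.

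PT-like cells had a median of 2318 UMIs with saline and 1864 with JPI-289, and 10.8% and 9.37% mitochondrial UMIs. In 4 ranges of depth the log2 ratio of Atf4 was between 1.62 and 2.37, that of Eif4ebp1 between 2.36 and 2.60 and that of Herpud1 between −1.72 and −1.06. In 3 ranges of mitochondrial content the ratios were 1.89 to 2.24, 2.05 to 2.86 and −1.60 to −1.18. Hspa5 instead turned with mitochondrial content, from −0.70 (−0.89 to −0.52) in the lowest of these ranges through −0.37 (−0.52 to −0.22) to 0.81 (0.62 to 0.999) in cells with over 20% mitochondrial UMIs. Ddit3 went from −1.21 (−1.92 to −0.56) to 0.41 (−0.52 to 1.34) over the same ranges. In cells of under 1000 UMIs the ratios of Asns (7 and 5 UMIs), Trib3 (1 and 1) and Ddit3 (5 and 9) were −0.61, −0.17 and 0.62, on the other side of 0 from those of all PT-like cells, with intervals that included 0. Sesn2 and Xbp1 fell just below 0 in 1 depth range each, at −0.024 and −0.082. In cells under 2000 UMIs only 2 of the 8 members with enough UMIs, Atf4 and Eif4ebp1, were called higher. Among clusters led by PT markers alone, which leaves the JPI-289 library with cluster 8, Atf4, Trib3, Asns, Chac1 and Eif4ebp1 had ratios of 1.72, 3.09, 2.59, 2.10 and 2.79, and all but Trib3, which had under 20 UMIs, were called higher. Ddit3, at −1.46, and Herpud1, at −2.29, were both over 2-fold lower there. This subset is not matched for injury, since cluster 8 had the highest Havcr1 of the PT-like clusters named above, at 722 CPM. The PT marker Slc34a1 was at 986 CPM in cluster 8, and at 348.5, 1386 and 5008 in control clusters 0, 4 and 14.

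PT-like cells were also thinned to 1000 UMIs each, without the 433 control and 502 JPI-289 cells that were shallower. Eif4ebp1 was detected in 5.33% (4.18 to 6.67%) of the cells with saline and 28.7% (26.1 to 31.5%) with JPI-289. Atf4 was detected in 5.93% (4.72 to 7.33%) and 15.4% (13.4 to 17.7%), and Asns in 0.300% (0.08 to 0.77%) and 1.93% (1.21 to 2.90%). Unthinned, the shares were 16.0% and 47.7% for Eif4ebp1, 15.9% and 37.4% for Atf4 and 1.76% and 7.18% for Asns. Red blood cells, which carry little RNA other than globin, gave thinned shares of 1.79% and 4.30% for Eif4ebp1 and of 3.57% and 1.08% for Atf4. These shares came from 56 and 93 cells, whose median depth before thinning was 1860 and 1851 UMIs. For Atf4 they rest on 2 cells with saline and 1 with JPI-289, with intervals of 0.44 to 12.3% and 0.03 to 5.85%. The former is too wide to show whether the share of control PT-like cells with Atf4 is above that background. The share of JPI-289 PT-like cells lay above the latter.

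Of the 6 members that are ATF4 targets apart from Herpud1 (Ddit3, Trib3, Asns, Chac1, Sesn2 and Eif4ebp1), at least 2 were detected in 4 of 1333 thinned control PT-like cells, or 0.300%, and in 19 of 1141 JPI-289 cells, or 1.67% (1.01 to 2.59%). None was detected in 89.9% and 65.9%. That difference rests mostly on Eif4ebp1, detected in 5.33% and 28.7% of these cells. Ddit3 was detected in 2.10% and 1.31%, Sesn2 in 2.48% and 2.63%, and each of Trib3, Asns and Chac1 in at most 1.93%. At this depth it cannot be seen whether the same cells carried several of these RNAs.

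In EC-like cells the pooled ratios covered differences between clusters. Cluster 17 held 174 control cells and 1 JPI-289 cell, while clusters 5 (243 and 284 cells) and 9 (84 and 282 cells) held both libraries. Hspa5 was at 1012 and 2161 CPM in cluster 5, a log2 ratio of 1.09 (0.92 to 1.27), but at 1029 and 703 in cluster 9, a ratio of −0.55 (−0.69 to −0.41). The pooled ratio of 0.42 is thus not that of either cluster. Atf4 was at 143 and 225 CPM in cluster 5, a ratio of 0.65 (0.14 to 1.17), and at 266 and 234 in cluster 9, a ratio of −0.19 (−0.44 to 0.08), so that its pooled rise was not seen in cluster 9. In cluster 17 the control level of Atf4 was 102 CPM. Herpud1 and Xbp1 split as well, at −0.34 (−0.96 to 0.27) and 0.35 (−0.28 to 0.99) in cluster 5 and 0.56 (0.15 to 1.002) and −0.91 (−1.23 to −0.60) in cluster 9. Asns was lower in both, at −1.25 (−2.81 to 0.02) and −1.43 (−2.41 to −0.52), and Trib3 at −1.13 (−3.07 to 0.40) and −1.49 (−2.89 to −0.23). Eif4ebp1 was at 0.26 (−0.34 to 0.87) in cluster 5 and −1.56 (−2.04 to −1.09) in cluster 9. Cluster 5 was shallow, with a median of 949 and 795 UMIs, and the PT marker Slc34a1 was at 297 and 149 CPM there against 16.6 and 27.5 in cluster 9, and the part of free RNA and doublets in these values was not tested. In EC-like cells under 2000 UMIs the median ratio of the members was 0.27, of the opposite sign.

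The wider pathways were followed with 7 lists of genes that do not hold the members. In PT-like cells the counts of each list stand beside 9.09% of all genes called higher and 23.4% called lower. Of the ATF4 and CHOP targets, 7 of 21 genes with enough UMIs were called higher there and 5 lower, with a median of −0.05. The share called lower is close to that of all genes. Slc7a11, the cystine transporter, had 4 and 115 UMIs, a log2 ratio of 4.82 (3.59 to 6.89), and its partner Slc3a2 was at 1.10. Slc7a11 had enough UMIs only because of the JPI-289 library and could hardly be called lower. Atf5, a transcription factor, was at 2.56 (2.11 to 3.07), and the abundant Cebpb at −0.05. At the other end were Gdf15, a stress-induced hormone, with 1963 and 321 UMIs and −2.47 (−2.65 to −2.30), and Cth, which makes cysteine, at −2.30.

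The aminoacyl-tRNA synthetases, which charge tRNAs with amino acids, had a median of 0.31 in PT-like cells, beside −0.19 for all genes. Of these 20 genes, 2 were called higher (Cars at 1.58 and Gars at 1.47), close to the 9.09% of all genes, and 0 lower. Sars and Nars were at 0.59 and 0.19, and Lars and Yars at −0.67 and −0.88. Among genes of serine and one-carbon metabolism, 1 of 6 was called higher and 2 lower, with Mthfd1l at 1.96 and Mthfd2 at 0.96, but Shmt2 at −2.07, Psph at −1.75 and the abundant Psat1 at 0.24. The median of that list was −0.04.

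Of the 18 ER chaperones and folding enzymes, 0 were called higher in PT-like cells. The highest was Dnajb9, which encodes an ER co-chaperone, at 0.63 (0.47 to 0.80). The next highest was Fkbp2 at −0.039. The median of the list was −0.38, below that of all genes, and 2 were called lower, Hyou1 at −1.02 and Ero1lb at −1.61. The abundant Ppib, P4hb and Hsp90b1 were at −0.38, −0.39 and −0.61. In ER-associated degradation, the pathway of Herpud1, 3 of 15 genes were called higher and 2 lower, with a median of 0.10. Herpud2, the relative of Herpud1, had 143 and 315 UMIs and a ratio of 1.28 (0.99 to 1.58), opposite to that of Herpud1. Vcp, the ATPase that extracts proteins from the ER, was at 1.19, Selenok at 0.23, Svip at −1.14 and Sel1l at −1.24.

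Of the stress sensors and eIF2 factors, 0 of 23 were called higher and 2 lower in PT-like cells, with a median of −0.14. Eif2ak3, which encodes PERK, had 162 and 73 UMIs and a ratio of −1.004 (−1.43 to −0.60), and Creb3l2 was at −1.38. Eif2b2 and Eif2s1, of the eIF2 machinery itself, were at 0.92 and 0.88, and Ppp1r15b at −0.24. Of the relatives of the members, 2 of 13 were called higher and 2 lower, with a median of 0.11. Eif4ebp3 followed Eif4ebp1 in direction at 1.16 (0.88 to 1.46), whereas Chac2 (304 and 46 UMIs, −2.57) and Trib2 (113 and 30 UMIs, −1.76) were opposite to Chac1 and Trib3. Ddit4l was at 1.11, and the chaperones Hspa8 and Hspa9 and the cap-binding Eif4e at 0.16, 0.42 and −0.18.

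In EC-like cells the counts of each list stand beside 5.13% of all genes called higher and 18.6% called lower. Shares such as 1 of 20 called higher are close to that background. Of the ATF4 and CHOP targets 1 of 20 was called higher and 6 lower, with a median of −0.06. The 1 was Ddit4, an inhibitor of mTORC1, with 387 and 1506 UMIs and a log2 ratio of 2.16 (1.998 to 2.33). Slc3a2 was at 0.86, Cebpb at 0.79, Cebpg at −1.46 and Pck2 at −1.63. Of the synthetases 0 of 20 were called higher and 7 lower, with a median of −0.49, among them Lars at −1.47, Dars at −1.41 and Nars at −1.21, with Sars at −0.72, Gars at 0.29 and Hars at 0.29. For serine and one-carbon metabolism it was 0 and 3 of 6, with a median of −0.91, Mthfd2 at −2.12, Shmt2 at −1.14, Psat1 at −0.42 and Mthfd1l at 0.39.

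The EC-like chaperone list had 0 of 18 called higher and 3 lower and a median of −0.45, with Sdf2l1 at −1.62, Creld2 at −1.30, Hsp90b1 at −0.58, Pdia3 at −0.21, Ppib at −0.11, Dnajb11 at 0.30 and Dnajb9 at 0.46. In ER-associated degradation 0 of 14 were called in either direction, with a median of −0.01, among them Derl2 at −0.96, Edem1 at −0.90, Selenok at 0.18, Vcp at 0.24 and Selenos at 0.68. Eif2ak3, lower in PT-like cells, had 30 and 60 UMIs and a ratio of 1.19 (0.55 to 1.88) in EC-like cells, where 1 of 21 sensors and eIF2 factors was called higher and 3 lower, with a median of −0.24. Among these were Ppp1r15b at 0.81, Eif2b2 at 0.29, Eif2s1 at −0.05, Dele1 at −1.01 and Atf6b at −1.14. Among the relatives, with a median of 0.15, 1 of 12 was called higher and 1 lower. Sesn1, the relative of Sesn2, had 35 and 121 UMIs and a ratio of 1.98 (1.44 to 2.58), beside 0.20 (−0.58 to 0.98) for Sesn2 itself and −0.62 for Sesn3. Eif4ebp2 was at −0.47, Hspa8 at 0.055, and the near-identical Hspa1a and Hspa1b, between which reads can be split, at 0.40 and 0.55.

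**Figure D5:**
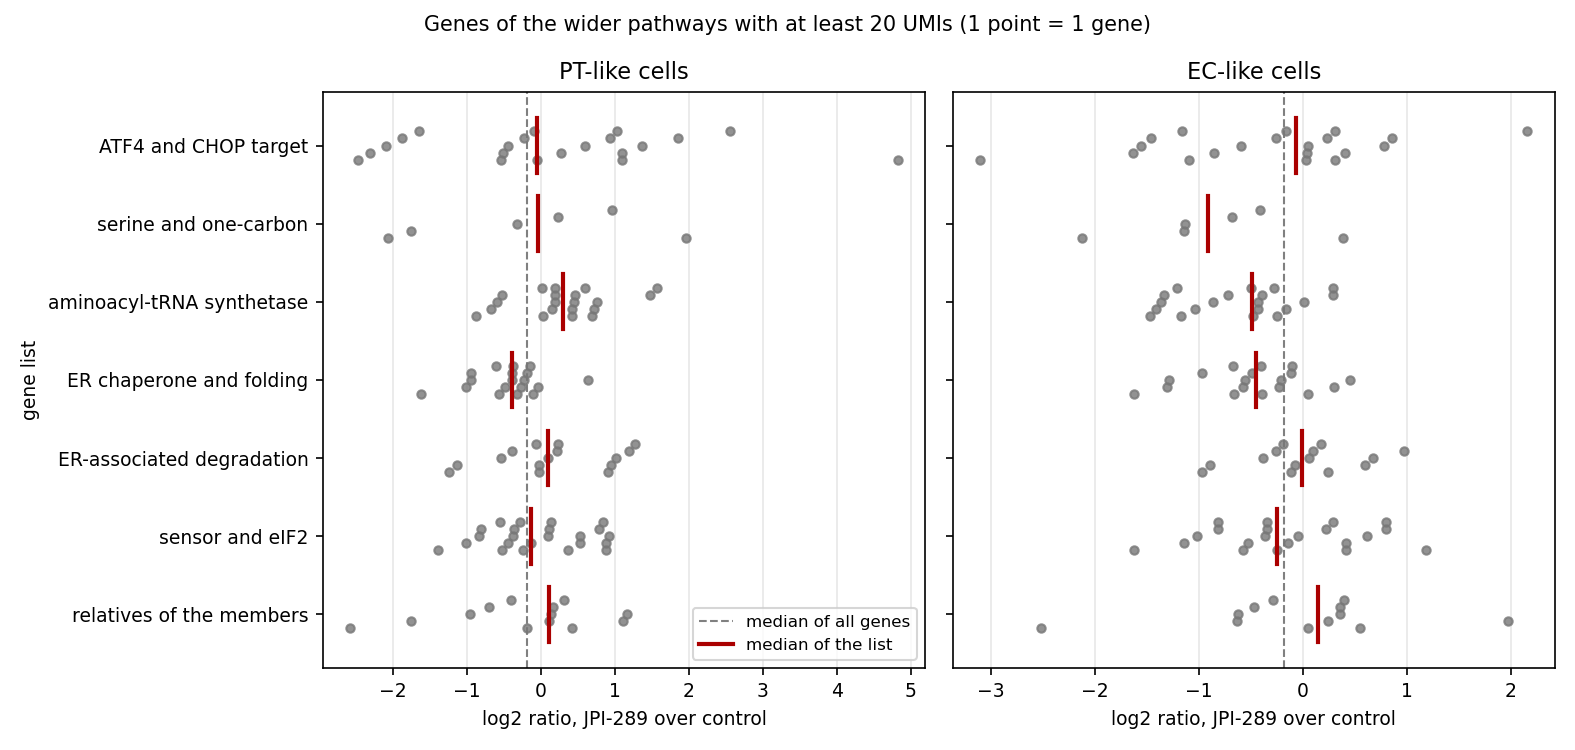
Log2 ratio of JPI-289 over control for the genes of 7 pathway lists with at least 20 UMIs, with 1 point per gene, the median of each list in red and the median of all genes as a dashed line, in PT-like and EC-like cells. In PT-like cells the ATF4 and CHOP targets spread from −2.47 to 4.82, the latter on few control UMIs. All but 1 of the ER chaperones lie below 0, as does the median of all genes.

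Over all barcodes, which needs no calling of cells or naming of clusters, Atf4 had 2077 UMIs with saline and 5311 with JPI-289, a log2 ratio of 1.46 (1.39 to 1.54). Eif4ebp1 was at 1.28 (1.22 to 1.33), Trib3 at 0.76, Sesn2 at 0.67, Asns at 0.65 and Chac1 at 0.19 (−0.31 to 0.70). Herpud1 was at −0.63 (−0.69 to −0.57), Ddit3 at −0.13 (−0.30 to 0.03), Xbp1 at −0.09 and Hspa5 at −0.06. These sums also vary with the makeup of the libraries, in which PT-like cells were 47.3% of control and 32.7% of JPI-289 cells.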

How the data were processed

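The authors aligned reads to mm10 with Cell Ranger 5.0.1 and deposited raw UMI counts of every barcode for 32285 gene rows. Cells were called by total UMIs and then, from 500 UMIs, by how far their profile lay from that of empty droplets (false discovery rate 0.01). Leiden clustering (scanpy 1.11.5, leidenalg 0.10.2, resolution 1) used 2000 variable genes without the members and pathway genes, with no correction between libraries. Clusters were named by their leading marker list, under limits set after the clusters were seen. Unnamed clusters held 3.86% of control and 7.52% of JPI-289 cells. Scrublet marked 1 of 8759 cells and so did not work, and doublets remain. To each sum 0.5 was added before the log2 ratio. The cell calling and the intervals were tested on simulated data. The simulated sums held counting error only, so they cannot show how the intervals do with variation between cells or mice. The members and lists were chosen with earlier results of these data known. List genes named are the 3 with most UMIs and the 2 highest and 2 lowest with at least 50 UMIs. Mars1 is listed as Mars. The alternatives tried are given in the closing section. One gene of the pathway lists is counted in its list but its own values are not reported here.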

Additional observations from a re-analysis of the deposited data

Results flagged for a closer look

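Members for which the 2 libraries differed at least 2-fold in opposite directions in different classes were looked at again. Herpud1 had a log2 ratio of 2.15 in TAL-like cells and of −1.56 in PT-like cells. Asns was at 2.09 in PT-like cells and at −2.83 in stroma-like cells, where only 2 UMIs were counted in the JPI-289 library. Eif4ebp1 was at 3.29 in red blood cell-like cells, on 1 control UMI and without separation of free RNA, and at −1.17 in stroma-like cells. With 1 library per condition these differences between classes were not tested.

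The called barcodes with over 50% mitochondrial UMIs (540 with saline and 396 with JPI-289) were left out of every comparison but also carried members. Among them Atf4 had 31 and 56 UMIs, a log2 ratio of 1.38 (0.74 to 2.08), Sesn2 had 6 and 16, a ratio of 1.89 (0.53 to 3.60), and Eif4ebp1 had 24 and 41, a ratio of 1.30 (0.55 to 2.11).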

How the results depend on the processing

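Of the alternatives, 12 were planned and 3 were added after seeing the data (cells under 2000 UMIs, cells of at least 2000 UMIs, and PT-like clusters led by PT markers). The number of members called higher in PT-like cells was 4 or 5 in the others and fell to 2 in cells under 2000 UMIs, where 8 members had enough UMIs; the cause was not tested. The PT-like median was between 0.42 and 1.28. In EC-like cells the number was 0 throughout, and the median was between −0.64 and 0.27, the last in cells under 2000 UMIs. The 17 values that differed at least 2-fold kept their direction in all 237 recomputations that gave a value, and 17 of these fell under 2-fold. Of all 70 values, 908 of 964 recomputations kept their direction. The other 56 came from 31 values, each under 2-fold as reported; 20 of them were in cells under 2000 UMIs, and 5 reached 2-fold in the other direction. Leaving out a replicate was not possible with 1 library per condition. No paired analysis was possible because the result comes from no test. Depth limits Trib3 and Chac1 most, with 44 and 29 UMIs in PT-like cells.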

Other observations

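Over 22 sums of class and library with at least 50 cells, and among 9767 other genes, those with the pattern most like Hspa5 were Kdelr2 (Pearson r = 0.895), Srpr (0.890) and Sec23a (0.877), which act in retrieval to the ER, in targeting of secreted proteins to it and in its coat vesicles. For Trib3 they were Mlkl (0.922), Myct1 (0.863) and Kank3 (0.861), for Ddit3 Sft2d1 (0.901), Bod1l (0.859) and Pnrc2 (0.854), and for Asns Snapin (0.710), Pde6d (0.707) and Dmwd (0.693). The points share libraries and differ in depth, so these values are descriptions only.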
